A study of Homo sapiens with 6 samples.

Results

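NLGN4X and BRINP3 were present at modest levels in libraries labelled as the adrenocortical carcinoma cell line H295R and were far lower in libraries labelled as its sorted subpopulation H295R-PM-Ptc+. They are described here with the other members of their families, which makes 9 genes of the 57341 named in the count table: the neuroligins NLGN1, NLGN2, NLGN3 and NLGN4X, the neurexins NRXN2 and NRXN3, and BRINP1, BRINP2 and BRINP3. The group was chosen by the fold changes of NLGN4X and BRINP3, which were among the largest falls between the 2 sets of libraries. Their values in that comparison are given as a description, without a test. The other 7 genes were taken by family name.

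The study asked how cells with the Hedgehog receptor Ptch1 at their surface differ from the line they come from. H295R is an established line from a human adrenocortical carcinoma that makes steroid hormones. H295R-PM-Ptc+ cells were sorted from it by flow cytometry with an antibody against an extracellular loop of Ptch1, and the sorted cells were then amplified in culture. Both were grown in the same DMEM/F12 medium with NuSerum and ITS+ and received no treatment. Stranded libraries were sequenced from 3 replicates of each, with polyA RNA given as the molecule, and replicates 1, 2 and 3 exist in both groups. Nothing says that the replicates came from separate cultures, so p-values measure only the spread between these samples. The sorted cells are 1 amplified population of 1 cell line. In such bulk RNA, fewer cells that express a gene and less of its RNA per cell cannot be told apart.

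PTCH1, the gene of the sorted receptor, went against the labels of the libraries. It had 441, 559 and 579 counts under the H295R label and 248, 326 and 319 under the H295R-PM-Ptc+ label, a log2 fold change of -0.81 (SE 0.147, edgeR adjusted p = 0.0207). That call was lost when either replicate 2 or replicate 3 of the H295R label, or replicate 2 of the H295R-PM-Ptc+ label, was left out (adjusted p = 0.0799, 0.0921 and 0.0618). Every other alternative fit kept the call, among them DESeq2 (adjusted p = 9.59e-05) and edgeR with the replicate number as a block (adjusted p = 1.72e-06). The log2 fold change of PTCH1 was negative in every fit. In the normalized values published with the study, the same columns carry the other group name. The counts cannot tell which naming is right, so the libraries are called here by their deposited labels, and the direction of every comparison between them rests on those labels.

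Neuroligins are adhesion proteins of the postsynaptic membrane, built on a cholinesterase-like domain that does not act as an enzyme. Neurexins are their partners on the presynaptic side, and both families help to shape synapses and are also made in endocrine cells. BRINP proteins carry a MACPF domain, are expressed mainly in neurons and are known for restraining the cell cycle when they are overexpressed.

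NLGN4X and BRINP3 lie on different chromosomes, and both are long, at 388 and 380 kb. In the table, which uses hg38 coordinates, NLGN4X covers chrX:5840637-6228863 on the minus strand in 14 exon intervals. BRINP3 covers chr1:190097662-190477629 on the minus strand in 10 exon intervals. The promoters of both genes are shown because these genes chose the group. Each line gives the 250 bases before a transcription start, 5′ to 3′ on the minus strand, from RefSeq on GRCh38.p14, with every CpG dinucleotide in capitals. They are the outer start of NLGN4X (chrX:6228868-6229117) and the outer (chr1:190477865-190478114) and inner (chr1:190475988-190476237) starts of BRINP3.
NLGN4X: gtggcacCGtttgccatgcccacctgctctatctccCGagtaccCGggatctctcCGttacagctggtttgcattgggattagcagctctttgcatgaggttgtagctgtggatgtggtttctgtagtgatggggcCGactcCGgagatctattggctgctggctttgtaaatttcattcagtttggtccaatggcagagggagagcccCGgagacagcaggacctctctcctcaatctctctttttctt
BRINP3 outer: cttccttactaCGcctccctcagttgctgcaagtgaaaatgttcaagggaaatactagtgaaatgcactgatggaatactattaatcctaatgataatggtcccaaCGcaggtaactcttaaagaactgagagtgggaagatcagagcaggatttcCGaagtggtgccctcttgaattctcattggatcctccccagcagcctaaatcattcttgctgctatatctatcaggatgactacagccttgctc
BRINP3 inner: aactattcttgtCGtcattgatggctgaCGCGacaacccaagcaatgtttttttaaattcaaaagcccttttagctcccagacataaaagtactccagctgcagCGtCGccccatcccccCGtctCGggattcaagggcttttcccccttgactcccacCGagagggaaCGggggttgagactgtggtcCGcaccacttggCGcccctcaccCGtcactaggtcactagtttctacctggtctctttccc
The printed stretch of NLGN4X held 7 CpGs at 52.4% GC. The outer stretch of BRINP3 held 3 CpGs and the inner one 12 at 53.6% GC. A second RefSeq start of NLGN4X, whose window of 300 bases is not printed because it covers an exon, had 67.3% GC and 24 CpGs. Over all 35116 RefSeq windows of that length, which run from 250 bases before a start to 50 after it, the medians were 58.7% GC and 14 CpGs.

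Of the 9 genes, 7 had RefSeq windows, 12 in all. Searched on both strands, none of the 12 held GACCACCCA, the binding sequence of the GLI factors of the Hedgehog pathway, which 0.236% of all windows held. None held AAGGTCA, the half-site of the adrenal factor SF1 (3.92% of all windows), AACAAT, a SOX sequence (10.1%), or TATAAA, the TATA box (11.5%). The 4 motifs are different strings, and windows holding more than one were counted for each. The windows show only that these letters were not there.

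The levels of the 9 genes spanned several orders of magnitude. Per length, as FPKM (fragments per kilobase of exon, scaled to library size), BRINP2 was the highest in both sets, at 77.0 ± 3.82 under the H295R label and 91.3 ± 2.95 under the H295R-PM-Ptc+ label (mean ± SD, n = 3). Its level was rank 519 of all genes in the first set and rank 393 in the second. NLGN2 followed at 19.5 ± 1.97 and 20.1 ± 1.08 FPKM, and NRXN2 at 13.4 ± 1.78 and 14.3 ± 0.874 FPKM. The ranges of these 3 genes did not overlap in either set.

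The next 4 genes had levels below 1 FPKM. In the libraries labelled H295R they were BRINP1 at 0.691 ± 0.0608, BRINP3 at 0.661 ± 0.12, NLGN4X at 0.567 ± 0.025 and NLGN3 at 0.558 ± 0.0594 FPKM. Each gene overlapped in its range with the next in this order, while all libraries of BRINP1 lay above those of NLGN4X and NLGN3. Under the H295R-PM-Ptc+ label the order was different. NLGN3 and BRINP1 overlapped at 0.637 ± 0.0345 and 0.605 ± 0.0745 FPKM, and NLGN4X and BRINP3 lay below them at 0.0708 ± 0.0455 and 0.0434 ± 0.0446 FPKM. The ranges of BRINP1 and NLGN4X were then apart, with means differing by 8.54-fold. NLGN1 and NRXN3 were at most 3 counts in every library.

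**Figure D1:**
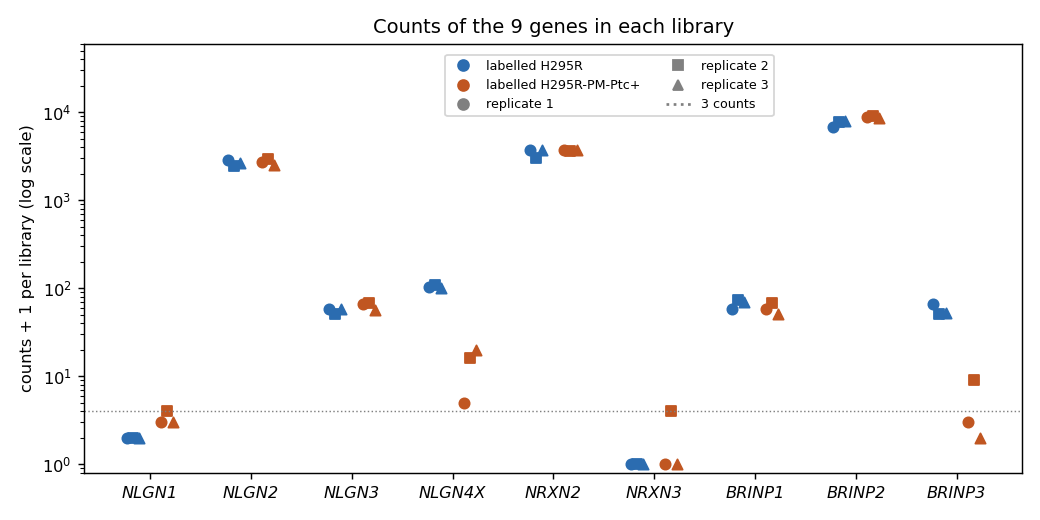
Counts plus 1 of the 9 genes on a log scale in the 3 libraries labelled H295R (blue) and the 3 labelled H295R-PM-Ptc+ (orange), with 1 symbol shape per replicate number and a dotted line at 3 counts. NLGN4X and BRINP3 separate between the sets, while NLGN2, NLGN3, NRXN2 and BRINP1 overlap.

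NLGN4X, an X-linked neuroligin found at synapses, had 104, 109 and 99 counts under the H295R label, and 4, 15 and 19 under the H295R-PM-Ptc+ label. Every library of the second set was below every library of the first, and replicate 1 was the lowest. Scaled to library size, these were 4.22 ± 0.186 and 0.527 ± 0.339 CPM (counts scaled to the TMM library size; mean ± SD, n = 3), 8.0-fold lower. The log2 fold change was -3.01 (SE 0.344, 95% interval -3.79 to -2.23). By replicate number, the CPM was 27.8-fold lower in replicate 1, 7.11-fold in replicate 2 and 4.88-fold in replicate 3. The 4 counts of replicate 1 have an exact Poisson 95% interval of 1.09 to 10.2, which lies below the 11.4 to 29.7 of replicate 3. Such intervals cover counting error only.

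BRINP3, which encodes a MACPF protein of neurons, had 65, 50 and 51 counts under the H295R label, and 2, 8 and 1 under the H295R-PM-Ptc+ label. Here too the sets did not overlap, but replicate 2 was the highest of the second set. The CPM were 2.25 ± 0.41 and 0.148 ± 0.152 (n = 3), 15.2-fold lower, with a log2 fold change of -3.87 (SE 0.439, 95% interval -4.86 to -2.87). The folds by replicate number were 34.8, 6.12 and 47.8. The Poisson intervals of the low libraries, 0.242 to 7.22, 3.45 to 15.8 and 0.0253 to 5.57, overlapped each other. Among the 16710 genes tested, ordered from the lowest log2 fold change, BRINP3 had rank 2 and NLGN4X rank 5. With the group names exchanged they would have the same ranks among the rises.

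Reads of NLGN4X can be shared with its Y-linked copy NLGN4Y. Of the 75-base windows of NLGN4X transcripts, one read long, 7.81% also occurred in NLGN4Y transcripts, and none occurred in NLGN2 or NLGN3. BRINP3 shared no such window with BRINP1 or BRINP2. No exon of the 9 genes overlapped an exon of another gene with counts.

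The other neuroligins did not pass the test between the sets. NLGN2, the neuroligin of inhibitory synapses, had 2847, 2471 and 2657 counts under the H295R label and 2748, 2946 and 2521 under the H295R-PM-Ptc+ label. The sets overlapped, and its log2 fold change was 0.05 (SE 0.0914, 95% interval -0.16 to 0.26, edgeR adjusted p = 0.856). NLGN3, X-linked like NLGN4X and found at both excitatory and inhibitory synapses, had 58, 50 and 57 counts against 65, 67 and 56. Its log2 fold change was 0.19 (SE 0.163, 95% interval -0.17 to 0.56, edgeR adjusted p = 0.619). The sets overlapped for NLGN3 as well.

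NLGN1, the neuroligin of excitatory synapses, had 1 count in each library of the H295R label and 2, 3 and 2 in the other set. NRXN3 had 3 counts in replicate 2 of the H295R-PM-Ptc+ label and 0 in the other 5 libraries, where a count of 0 allows up to 3 counts. Both were too low to test, and their levels were not detectable above 3 counts at this depth. NRXN2, one of the neurexins that bind neuroligins, was abundant, with 3694, 3042 and 3697 counts against 3706, 3641 and 3743. The sets overlapped, with a log2 fold change of 0.10 (SE 0.106, 95% interval -0.14 to 0.34, edgeR adjusted p = 0.728).

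BRINP1, also known as DBC1 for its deletion in bladder cancer, had 58, 73 and 69 counts under the H295R label and 57, 67 and 50 under the H295R-PM-Ptc+ label. The sets overlapped, with a log2 fold change of -0.19 (SE 0.168, 95% interval -0.57 to 0.19, edgeR adjusted p = 0.636). BRINP2 was the one gene of this family that lay higher in all libraries of the H295R-PM-Ptc+ label, with 6916, 7721 and 7901 counts against 8890, 9061 and 8570. The CPM were 304 ± 15.1 and 361 ± 11.6 (n = 3), 1.19-fold apart. Its log2 fold change of 0.25 (SE 0.0749, 95% interval 0.08 to 0.42) did not pass the edgeR test (adjusted p = 0.120). It passed with the replicate number as a block (edgeR adjusted p = 4.74e-04), a fit in which 22.5% of all genes passed, and without replicate 1 of both groups (edgeR adjusted p = 0.0135).

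Of the 7 genes taken by family name, 5 could be tested and none passed edgeR's test, against 3.73% of all 16710 genes. At an unadjusted p under 0.05 there was 1, BRINP2, and DESeq2 and limma-voom called none after adjustment, with 1 at an unadjusted p under 0.05 in DESeq2. With the replicate block 1 of the 5 passed, again BRINP2, and the other 4 had adjusted p between 0.232 and 0.613. The sets did not overlap for 1 of the 5, against 23.5% of all genes.

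**Figure D2:**
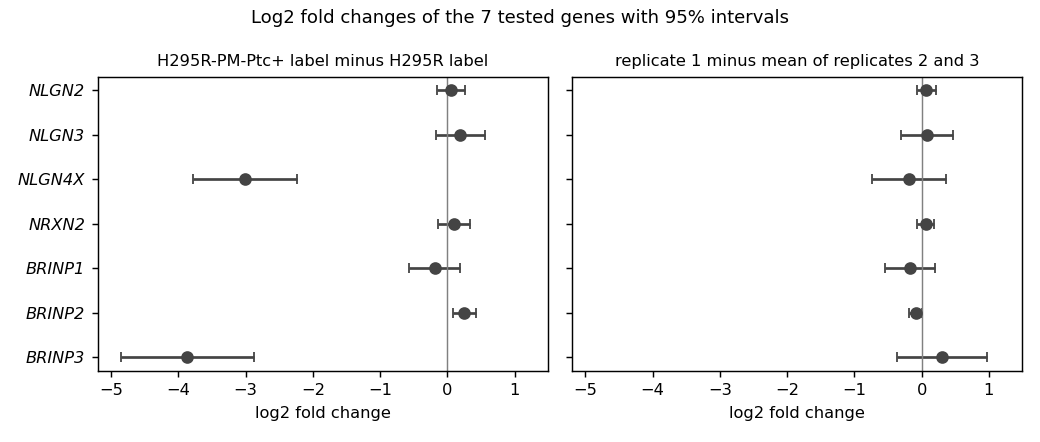
Log2 fold changes of the 7 tested genes with their 95% intervals, between the H295R-PM-Ptc+ and H295R labels (left) and between replicate 1 and the mean of replicates 2 and 3 (right). On the left NLGN4X and BRINP3, which chose the group, lie at -3.01 and -3.87, and the others lie between -0.19 and 0.25. On the right no value is larger than 0.31 in size.

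The levels were also summed by family. NLGN2 made up 94.5% ± 0.248 of the summed neuroligin FPKM under the H295R label and 96.6% ± 0.121 under the H295R-PM-Ptc+ label (SD, n = 3). The share of NLGN4X was 2.77% ± 0.287 in the first set and 0.338% ± 0.22 in the second. The neuroligin sum was 20.6 ± 2.03 and 20.8 ± 1.12 FPKM, so that the difference in NLGN4X was smaller than the spread of the sum. Without NLGN4X, which chose the group, the sums gave p = 0.5 in a two-sided exact permutation test, which cannot go below 0.1 with 3 libraries against 3.

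In the BRINP family, BRINP2 made up 98.3% ± 0.154 and 99.3% ± 0.125 of the FPKM. The share of BRINP3 was 0.849% ± 0.192 under the H295R label and 0.047% ± 0.0477 under the H295R-PM-Ptc+ label. The summed FPKM of BRINP1 and BRINP2 was 73.8, 77.6 and 81.6 in the first set and 88.6, 92.9 and 94.2 in the second. These did not overlap, and the exact permutation p of 0.1 was the smallest that the design allows. NRXN2 and NRXN3 summed to 13.4 ± 1.78 and 14.3 ± 0.872 FPKM, with an exact permutation p of 0.6.

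A contrast that had no part in choosing the genes is that between replicate numbers, which both groups share. Replicate 1 differed from replicates 2 and 3 in 30.8% of all genes (5139 of 16710, edgeR with group as a term). None of the 7 tested genes was among them, and none had an unadjusted p under 0.05. DESeq2 gave an adjusted p for 3 of the 7, with none called and none at an unadjusted p under 0.05. Their log2 differences were between 0.06 and 0.31 in size, with edgeR adjusted p from 0.126 to 0.775. BRINP2, at -0.09, was nearest to the threshold (unadjusted p = 0.0521). NLGN4X was at -0.19 (95% interval -0.74 to 0.36) and BRINP3 at 0.31 (-0.37 to 0.98), and these were the widest intervals of the 7.

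The synaptic partners of these families were described from lists fixed by function. The presynaptic list holds 34 genes, among them receptors and secreted ligands that join neurexins or bind neuroligins, and 24 were tested. In these, 1 passed as higher under the H295R-PM-Ptc+ label and 2 as lower, against 2.42% and 1.32% of all genes, with a median log2 fold change of -0.17 beside 0.001 over all genes. TENM2, a teneurin that joins latrophilins across the synapse, fell from 142, 176 and 207 counts to 26, 35 and 46. Its log2 fold change was -2.27 (SE 0.236, edgeR adjusted p = 0.00129). GPC4, a glypican that acts in synapse formation, had 1388, 1371 and 1405 counts against 793, 807 and 714, a log2 fold change of -0.84 (edgeR adjusted p = 5.76e-04). With the replicate block 2 passed as higher and 8 as lower, where 12.1% and 10.4% of all genes did.

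The postsynaptic list holds 52 adhesion proteins, scaffolds and regulators of neuroligins, of which 38 were tested. In these, 4 passed as higher and 3 as lower, with a median log2 fold change of 0.05. DLGAP1, a scaffold protein of the postsynaptic density, had 3, 4 and 7 counts under the H295R label and 21, 25 and 20 under the H295R-PM-Ptc+ label. Its log2 fold change was 2.22 (SE 0.343, edgeR adjusted p = 0.00949). CLSTN2, a calsyntenin, rose from 3.68 ± 1.08 to 11.3 ± 1.19 CPM (n = 3), a log2 fold change of 1.61 (SE 0.202, edgeR adjusted p = 0.00321).

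Among the postsynaptic genes that fell, SLITRK3, an adhesion protein of inhibitory synapses, had 27, 20 and 21 counts against 4, 5 and 2. Its log2 fold change was -2.58 (SE 0.366, edgeR adjusted p = 0.00630). SLITRK5, of the same family, changed by -1.36 (edgeR adjusted p = 0.0115), and CADM3, an adhesion protein of neurons, by -1.01 (edgeR adjusted p = 0.00244). With the replicate block 8 genes of the list passed as higher and 7 as lower. CLSTN1, the highest of the list at 29.4 and 31.1 FPKM, did not pass (log2 fold change 0.08, edgeR adjusted p = 0.831). The calls of TENM2, GPC4, CLSTN2, SLITRK3 and CADM3 held with any 1 library left out. That of DLGAP1 was lost without replicate 2 of either label (edgeR adjusted p = 0.0551 and 0.0504), and that of SLITRK5 without replicate 2 of the H295R label (0.0551). Across both lists 10 of 62 tested genes passed, 16.1%, and 25 with the block, 40.3%, where the shares of all genes were 3.73% and 22.5%. Their members include the best known partners of both families and were listed with earlier results of these data known, so the shares are a description.

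**Figure D3:**
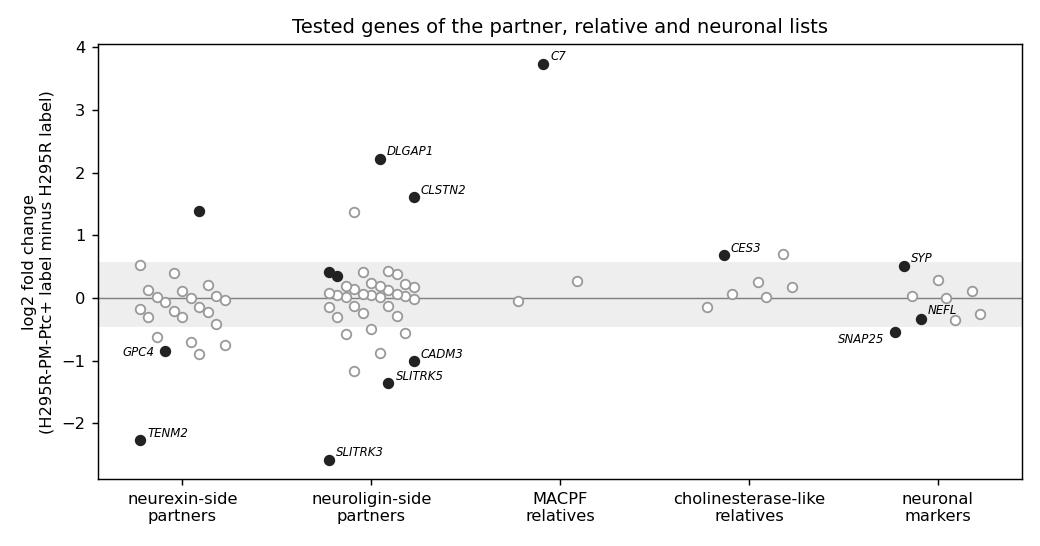
Log2 fold changes of tested genes in 5 lists, with genes whose edgeR adjusted p is under 0.05 filled and the others open. The grey band is the 5th to 95th percentile of all tested genes, -0.44 to 0.56. TENM2 and SLITRK3 lie lowest and C7 highest, and 3 filled points carry no name.

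Relatives by protein fold were looked at in the same way. Of 9 other genes with a MACPF domain, 3 were tested. C7, a component of the terminal complement complex, rose from 22, 19 and 12 counts to 307, 207 and 196, a log2 fold change of 3.74 (edgeR adjusted p = 3.25e-04). ASTN1, an astrotactin of migrating neurons and the highest of that list, lies 6.52 kb from BRINP2. It changed by 0.27, close to the 0.25 of BRINP2, and did not pass the edgeR test (adjusted p = 0.263). It passed with the block (4.15e-04) and without replicate 1 of both groups (edgeR adjusted p = 0.00820). Of 10 genes with the cholinesterase-like fold of neuroligins, 7 were tested and CES3, a carboxylesterase, passed at a log2 fold change of 0.68 (edgeR adjusted p = 0.0215). That call was lost when any of 4 libraries was left out, replicates 2 and 3 of the H295R label and 1 and 2 of the other (up to 0.0987), while that of C7 held. BCHE, butyrylcholinesterase, was the highest of them and did not pass (log2 fold change -0.14, edgeR adjusted p = 0.451, and 0.0357 with the block). With the block 4 of the 7 passed as higher and 1 as lower. Over all genes 2.42% passed as higher and 1.32% as lower, and with the block 12.1% and 10.4%.

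The profiles of NLGN4X and BRINP3 over the 6 libraries were compared with those of all tested genes by the Euclidean distance between centred log2 CPM. Nearest to NLGN4X were TENM2 at 1.64, ADCY2 at 1.87, BGN at 1.94, and MARCH1 and RERG at 2.11. Nearest to BRINP3 were SOX5 at 2.04, SLITRK3 at 2.27, ADCY2 at 2.46, NLGN4X at 2.58 and TOX at 2.85. BGN encodes a matrix proteoglycan, MARCH1 a ubiquitin ligase, RERG a small GTPase and TOX a DNA-binding protein. BRINP3 came at rank 20 from NLGN4X. With 6 libraries in 2 sets, a shared difference between the sets makes most of such a likeness. ADCY2, an adenylyl cyclase near both, had 162, 111 and 124 counts against 19, 16 and 17. SOX5, a SOX transcription factor, had 46, 48 and 54 counts against 7, 5 and 3.

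**Figure D4:**
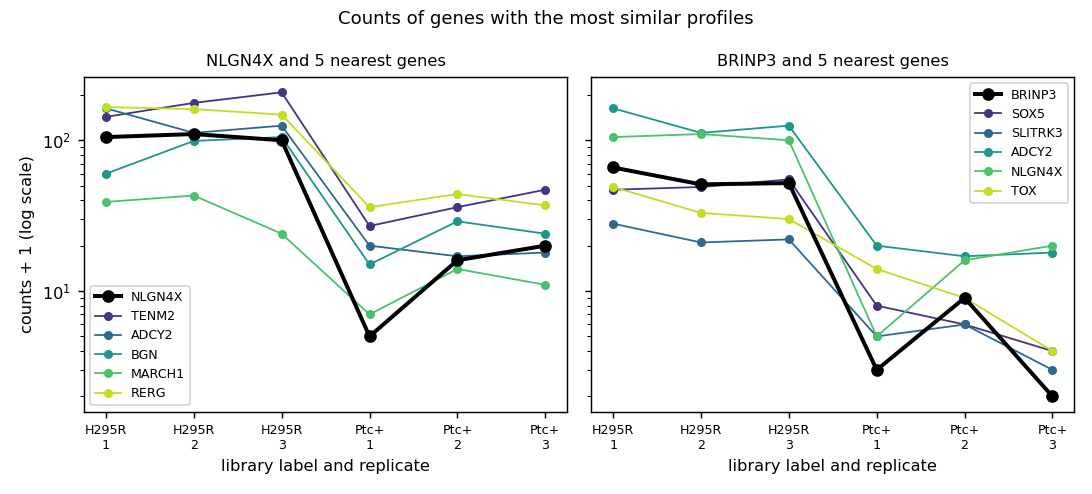
Counts plus 1 on a log scale in the 6 libraries for NLGN4X (left) and BRINP3 (right), in black, with the 5 genes whose profiles are nearest to each. All of them drop from the libraries labelled H295R to those labelled H295R-PM-Ptc+, and NLGN4X appears again beside BRINP3.

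The 10 nearest tested genes of each member, 5 a side, were set beside it. Near NLGN4X 2 passed and both were higher, VCX3A at a distance of 305 kb (log2 fold change 1.82, edgeR adjusted p = 3.51e-04) and VCX at 1610 kb (2.23, edgeR adjusted p = 3.25e-04). These belong to a family of near-identical copies, so their own values are uncertain. The median of the 10 was -0.03. Beside BRINP3 the median was -0.11, and PLA2G4A, a phospholipase gene 3110 kb away, passed as lower (-1.83, edgeR adjusted p = 0.0249). That call was lost with DESeq2 and when any library but replicate 1 of the H295R label was left out (edgeR adjusted p up to 0.111). Beside BRINP2 none of 10 passed, 9 had a positive value, and the median was 0.15. TNFSF8, 4220 kb from BRINP1, had no count under the H295R label and 44, 34 and 41 under the H295R-PM-Ptc+ label, at least 13.3-fold higher against 3 counts per library (edgeR adjusted p = 0.00113). None of the 50 neighbours of the other 5 genes passed. Of the 90 neighbours 4 passed, near the 3.73% of all genes, and with the replicate block 26 did, where 22.5% of all genes did. They included 13 of the 50 just named and 4 of the 10 beside BRINP2.

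**Figure D5:**
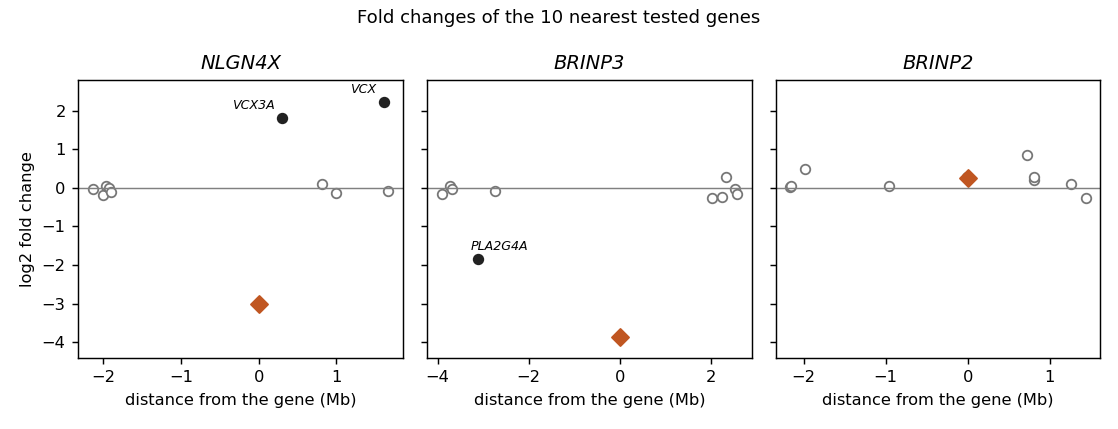
Log2 fold changes of the 10 nearest tested genes of NLGN4X, BRINP3 and BRINP2 against their distance in Mb, with genes that passed filled and the gene itself as an orange diamond at 0. Most neighbours lie near 0, while NLGN4X lies at -3.01 and BRINP3 at -3.87.

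The 6 libraries held 23264403 to 25813247 counts and showed adrenocortical markers throughout, with 11 of 12 tested, a summed level of 309 to 387 FPKM under the H295R label and 323 to 403 under the other. NR5A1 was the highest of them over all 6 libraries (107 and 103 FPKM), with STAR, named after its values were seen, at 79.2 and 105. In these, CYP21A2 passed as higher, and with the block 2 passed as higher and 2 as lower. Of 14 neuronal markers 9 were tested, with SYP higher (log2 fold change 0.51, edgeR adjusted p = 0.0119) and SNAP25 and NEFL lower (-0.55 and -0.34), and their sum was 74.2 to 79.8 against 61.6 to 65.7 FPKM. STMN2 and ELAVL4 were at 0. Chromaffin markers summed to 15.2 to 18.0 against 12.2 to 14.2 FPKM, with DBH, PNMT, PHOX2A and SLC18A1 at 0. Fibroblast markers summed to 9.39 to 10.3 against 17.2 to 18.6 FPKM, with COL3A1 (1.51) and THY1 (1.29) higher and LUM at 0. Most of the difference in that sum was COL3A1, at 3.42 and 9.76 FPKM. Of the 9 fibroblast markers 4 were tested. The untested ones had at most 12 counts in a library, and some of them were higher and others lower. Endothelial markers, none tested, reached at most 0.205 FPKM, and blood cell markers 1.14 FPKM, with PTPRC and CD68 at 0. With 1 library left out, SYP lost its call in 3 of 6 cases, SNAP25 in 2, NEFL in 5 and THY1 in 4, all of them cases other than leaving out replicate 1 of the H295R label. With the block 4 neuronal markers passed as lower and 1 as higher, 3 fibroblast markers as higher, 1 chromaffin marker as lower and 1 blood cell marker as higher. Over all genes 3.73% passed, and 22.5% with the block. The part of the neuronal and fibroblast markers in the values of NLGN4X and BRINP3 was not tested.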

How the data were processed

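RNA of 6 libraries was analysed, 3 labelled H295R and 3 labelled H295R-PM-Ptc+, grouped by GEO's labels. Reads were mapped by the authors to hg38 (STAR 2.4.0a) and assigned to gene names of an Ensembl annotation (featureCounts), primary alignments of multiply mapped reads included, and the table the authors deposited holds raw counts, neither normalized nor filtered. The submitters' processing notes name Subread 1.5.0-p3, while the paper names another release. The kit is given as mRNA in the paper and as total RNA in the labels. Counting used the strand. In 230 of 231 gene pairs on opposite strands, where at least 90% of the exon bases of one lay inside exons of the other, the inner gene had fewer counts per base than the outer one (median ratio 0.00228), so reads were counted on the strand of the outer genes. A row without a gene name held 0 counts and was left out.

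From these counts, edgeR 4.0.16 (R 4.3.3) was run with TMM factors, filterByExpr and the two-sided quasi-likelihood test, with group as the only term and Benjamini-Hochberg adjustment over all 16710 tested genes. A gene passed at an adjusted p under 0.05. CPM and FPKM use TMM library sizes and the length column of the table. The replicate contrast added the replicate number to group. The scripts were tested on simulated data. Libraries within a group differed beyond counting error, with a chi-square per gene of 5.56 to 25.8. The study states no pairing. Same-numbered replicates deviated together (r = 0.465, 0.280 and 0.201 across genes, against -0.325 to 0.134 for different numbers), so the block is given beside the calls of members, and the counts of lists and neighbours, that it changes.

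The alternatives were DESeq2 1.42.0, limma-voom 3.58.1, relative log expression size factors, no filter, at least 10 counts in every library, the replicate block, leaving out each library, and leaving out replicate 1 of both groups. The members and lists were chosen with earlier results of these data known. All members and PTCH1 were named, and of each list at most the 5 largest changes that passed and the highest gene, defining cell markers at 0, the 5 nearest profiles, and at most 3 genomic neighbours that passed. Some genes that this rule would name are not reported here. Promoter windows came from RefSeq (GRCh38.p14), and shared 75-base windows from GENCODE transcripts. CpG dinucleotides were put in capitals after no motif was found.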

Additional observations from a re-analysis of the deposited data

How the results depend on the processing

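For NLGN4X and BRINP3, whose sets do not overlap, the choice of these genes fixes the sign of the difference, and only its size is given. The filter on at least 10 counts per library left both genes out of that fit. The log2 fold change of NLGN4X was -3.47 to -2.57 when 1 library was left out and -2.54 without replicate 1 of both groups, and that of BRINP3 was -5.08 to -3.48 when 1 library was left out. BRINP2 passed with the replicate block (0.25) and without replicate 1 of both groups (0.24), which made 1 call among the other 7 genes in each of these fits, and in no other of its 13 alternatives. With the replicate block, which pairs the same-numbered libraries, 2028 genes were higher and 1730 lower, where 404 and 220 were without it, and the block changed no call of NLGN2, NLGN3, NRXN2 or BRINP1. Without a filter 698 genes were higher and 413 lower, without replicate 1 of both groups 1118 and 895, and with 1 library left out 161 to 529 and 57 to 281. DESeq2 called 2967 genes between replicate numbers in place of 5139. The log2 fold change of PTCH1 was -0.91 to -0.67 with 1 library left out. The presynaptic partners had 0 to 1 calls higher with 1 library left out, 0 with the filter on 10 counts per library and 2 with the block, and 5 lower without replicate 1 of both groups and 8 with the block. The postsynaptic partners had 1 to 5 calls higher with 1 library left out and 8 with the block, and 5 lower with no filter and 7 with the block. The causes were not tested. Depth limits NLGN1 and NRXN3, at most 3 counts, and the low libraries of NLGN4X and BRINP3.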
